A study of Mus musculus with 9 samples.

Results

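The 44 collagen genes measured in these kidneys were taken as the genes whose symbol is Col, a number, the letter a and a number, each with a row of its own in the annotation of the array. They are 44 of 22180 genes tested, and the gene table of the reference holds 44 such symbols, so every one had a row. Where a gene had more than 1 row, which applied to 3 collagens, the row with the highest mean over the 9 arrays was used. The list holds 11 fibrillar chains, the 6 chains of type IV and 27 others.

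Kidney RNA of mice was measured on 9 whole-transcript arrays in 3 groups of 3. The first group received norUDCA, which is norursodeoxycholic acid and has 1 carbon fewer in its side chain than ursodeoxycholic acid, in the feed over 5 days, then had the common bile duct ligated for 3 weeks, and is called norUDCA-fed CBDL. The second had the same ligation for 3 weeks with no feeding named and is called CBDL, and the third had a sham operation 3 weeks earlier. Strain, sex and age of the mice, the dose, and whether feeding went on after surgery are not stated in the labels, and no sham group fed norUDCA was among the samples. Ligation stops bile from reaching the gut, and the kidney disease that can follow is called cholemic nephropathy; the study, by its title, concerns norUDCA as a means to lessen it.

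Collagens are proteins of 3 chains wound into a helix, with glycine recurring all along each chain. Fibrillar collagens (types I, III and V among them) form the rope-like fibres of interstitial tissue and scars, and are made mainly by fibroblasts and pericytes. Type IV forms the sheet under epithelia and endothelia, and in the mature glomerular filter it is built from the products of Col4a3, Col4a4 and Col4a5, made by podocytes. Other types link fibres to each other, to basement membranes or to cells.

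All values are log2 signals after robust multi-array averaging (RMA) by the authors, so 1 unit is a 2-fold step, and levels are compared between arrays for 1 gene and not between genes. A gene rose or fell when its limma p, adjusted by the Benjamini-Hochberg method over 22180 genes, was under 0.05, and every adjusted p below is of that kind. The median signal of the arrays lay between 5.7 and 5.79. On the second principal component sham_159 (-34.5) and CBDL_165 (-22.9) stood apart from the other arrays (3.4 to 12), and norUDCA_CBDL_172 had lower signals of the Y-linked genes Kdm5d, Eif2s3y and Uty (6.46, 7.64 and 7.66) than the other arrays, where the lowest were 7.89, 8.49 and 9.15. Kidney markers were bright in all groups: mean signals of Umod, a protein of the thick ascending limb, were 12.78 in norUDCA-fed CBDL, 12.75 in CBDL and 12.51 in sham kidneys. The labels do not say that replicates came from separate animals, so p-values measure the spread between these samples, and 3 arrays a group limit the precision. An exact permutation test of 3 against 3 cannot give a two-sided p under 0.1.

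In CBDL against sham kidneys, 15 of 44 collagens rose and 5 fell (34.1% and 11.4%). Over all genes tested, 10.3% rose and 11.5% fell. The increases reached 3.37 on the log2 scale for Col12a1 and 3.06 for Col1a1, while the largest decrease was -0.95, for Col6a6. The arrays of the groups did not overlap for 17 collagens with higher and 6 with lower signals in CBDL, against 15.6% and 20% of all genes (35.6% together). The number called lower was 3 without sham_158, sham_159 or CBDL_165. The median change was 0.13 over the collagens and -0.06 over all genes, and the mean was 0.54 for collagens and -0.04 for all genes. In neither direction did 24 of the 44 pass. At an unadjusted p under 0.05, 18 collagens were higher and 6 lower, against 15.1% and 18.2% of all genes.

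With norUDCA-fed CBDL set against CBDL kidneys, 13 of 44 collagens were lower (29.5%, against 3.2% of all genes) and limma called 0 higher (3.61% of all genes were higher). At an unadjusted p under 0.05, 19 collagens were lower and 2 higher, against 9.79% and 9.48% of all genes. The arrays of these groups did not overlap for 19 collagens with lower and 2 with higher signals, against 12.6% and 11.6% of all genes (24.2% together). Without norUDCA_CBDL_175 the number lower was 8. With variances that were not moderated across genes it was 1, Col15a1, and the adjusted p of the other 12 lay between 0.0543 and 0.0975. For norUDCA-fed CBDL against sham kidneys, 7 collagens were higher and 1 lower (15.9% and 2.27%, against 1.82% and 1.37% of all genes). The arrays did not overlap for 15 collagens with higher and 4 with lower signals, against 8.96% and 13.5% of all genes (22.5% together). At an unadjusted p under 0.05, 13 were higher and 2 lower, against 6.92% and 9.43% of all genes. The number higher was 4 without sham_160 or norUDCA_CBDL_172 and 3 without norUDCA_CBDL_179, it was 3 with variances that were not moderated, and it was 12 with estimated array weights. Both comparisons with CBDL share the CBDL arrays, and both with sham share the sham arrays, so the values of each are given side by side below without counting genes shared between them.

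**Figure D1:**
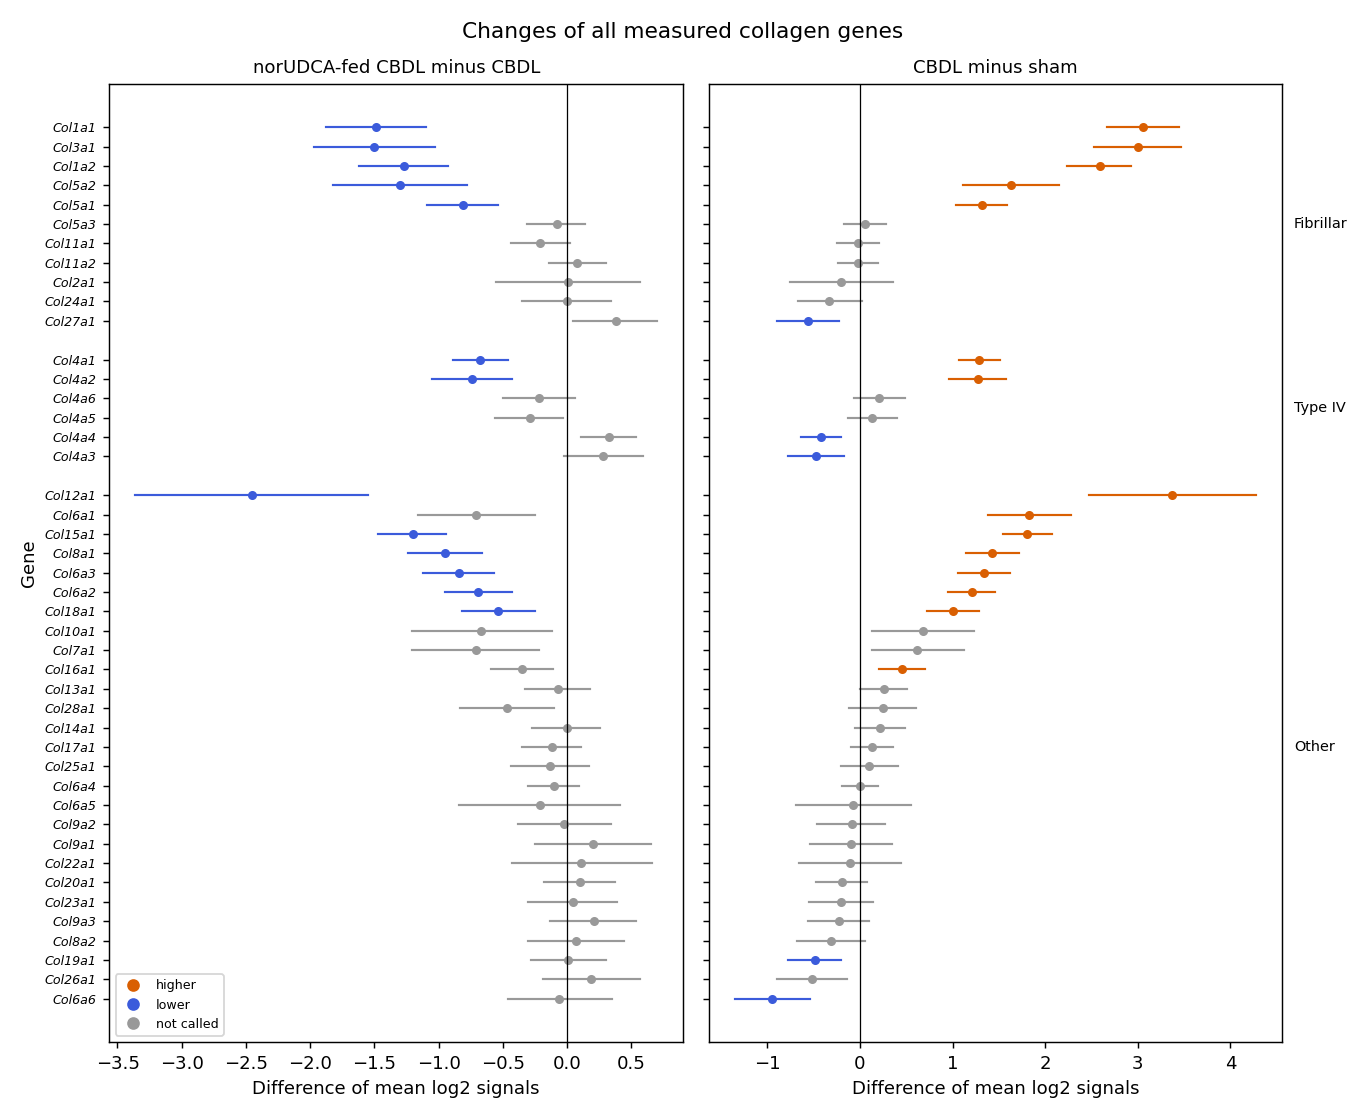
Difference of mean log2 signals (x axis) for each of the 44 collagen genes (y axis, by class and by the change in CBDL minus sham), with norUDCA-fed CBDL minus CBDL on the left and CBDL minus sham on the right, on separate scales. Points are estimates with 95% confidence intervals from the limma fit, and colour gives the call at an adjusted p under 0.05. Of the 11 fibrillar chains 5 rose in CBDL against sham and 1 fell, of the 6 type IV chains 2 rose and 2 fell, and of the 27 others 8 rose and 2 fell. Over all genes, 10.3% rose and 11.5% fell.

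Among fibrillar collagens 5 of 11 rose in CBDL against sham and 1 fell (45.5% and 9.09%, against 10.3% and 11.5% of all genes). In norUDCA-fed CBDL against CBDL 5 were lower and 0 higher by limma, against 3.2% and 3.61% of all genes. At an unadjusted p under 0.05, 5 were lower and 1 higher there, against 9.79% and 9.48% of all genes. Against sham, 3 were higher and 0 lower in norUDCA-fed CBDL, against 1.82% and 1.37% of all genes (unadjusted: 4 and 0, against 6.92% and 9.43%). Col1a1, which encodes the main chain of type I collagen, had signals of 9.25, 9.27 and 9.34 in norUDCA-fed CBDL, 10.92, 10.90 and 10.52 in CBDL and 7.85, 7.99 and 7.33 in sham kidneys. The 3 groups did not overlap, and the norUDCA-fed arrays lay between the others. Col1a1 changed by 3.06 (SE 0.17, adjusted p = 1.84e-05) in CBDL against sham, an 8.31-fold difference, by -1.49 (SE 0.17, adjusted p = 0.00655) in norUDCA-fed CBDL against CBDL, and by 1.57 (SE 0.17, adjusted p = 0.00245) in norUDCA-fed CBDL against sham.

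Col1a2, the partner chain of type I, had signals of 9.11, 9.13 and 9.43 in norUDCA-fed CBDL, 10.62, 10.61 and 10.26 in CBDL and 7.86, 8.17 and 7.72 in sham kidneys, again with no overlap. Its changes were 2.59 in CBDL against sham (6-fold), -1.27 in norUDCA-fed CBDL against CBDL and 1.31 in norUDCA-fed CBDL against sham. Col3a1, whose product forms type III fibres alongside type I, was at 8.99 on all 3 norUDCA-fed arrays, at 10.65, 10.68 and 10.14 in CBDL and at 7.77, 7.69 and 7.0 in sham kidneys. The 3 norUDCA-fed values were identical to every deposited digit, as happens in 587 of 41345 rows of the table, so their SD of 0 is not a spread between kidneys. Exactly repeated values on some arrays occur in 15 of 44 collagens and in 41.3% of all rows. Col3a1 changed by 3.00 in CBDL against sham (adjusted p = 3.17e-05), by -1.5 in norUDCA-fed CBDL against CBDL (adjusted p = 0.00815) and by 1.5 in norUDCA-fed CBDL against sham (adjusted p = 0.00679). The spread behind all 3 limma p-values takes in the SD of 0 of the norUDCA-fed arrays, so it may be too small.

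Type V collagen sits inside type I fibres and limits their thickness. Col5a1 had signals of 7.02, 7.28 and 7.28 in norUDCA-fed CBDL, 8.17, 7.93 and 7.93 in CBDL and 6.77, 6.78 and 6.53 in sham kidneys, with no overlap between groups. It changed by 1.32 (SE 0.12) in CBDL against sham and by -0.81 (SE 0.12) in norUDCA-fed CBDL against CBDL, and its 0.50 in norUDCA-fed CBDL against sham did not pass (adjusted p = 0.0615). Col5a2 had signals of 7.08, 6.98 and 6.87 in norUDCA-fed CBDL, 8.41, 8.76 and 7.65 in CBDL and 6.56, 6.62 and 6.74 in sham kidneys. The low CBDL value was that of CBDL_170, which still lay above every norUDCA-fed array. Col5a2 changed by 1.63 in CBDL against sham (adjusted p = 0.000833) and by -1.30 in norUDCA-fed CBDL against CBDL (adjusted p = 0.0138), a call that ended without CBDL_164 (0.058), norUDCA_CBDL_175 (0.0603) or norUDCA_CBDL_179 (0.0524). In norUDCA-fed CBDL against sham it differed by 0.33 (adjusted p = 0.517, 95% interval -0.19 to 0.85). The remaining type V chain, Col5a3, did not pass in any comparison, with 0.06 in CBDL against sham (95% interval -0.17 to 0.28).

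Of the collagens, 3 had a second row, and for Col5a1 the rows disagreed in the direction of change in CBDL against sham. The unused row of Col5a1, with signals of 4.66 to 5.30 over the 9 arrays, differed by -0.13 in CBDL against sham (adjusted p = 0.674), and with the mean of both rows the lower signal in norUDCA-fed CBDL against CBDL lost its call (-0.42, adjusted p = 0.0516). The unused row of Col1a2 changed by 2.08 in CBDL against sham and by -1.15 in norUDCA-fed CBDL against CBDL. For Col6a1 the unused row changed by 1.36 and by -0.45 (adjusted p = 0.0253) in the same comparisons. In norUDCA-fed CBDL against CBDL the used row of Col6a1 did not pass (adjusted p = 0.0704), while the mean of both rows did (-0.58, adjusted p = 0.0286).

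The fibrillar chains known from cartilage and bone behaved otherwise. Col2a1 (type II), Col11a1 and Col11a2 (type XI) and Col24a1 did not pass in any of the 3 comparisons, with changes in CBDL against sham of -0.20, -0.02, -0.02 and -0.33. Their mean signals were between 4.85 and 6.09 in every group. Col27a1, a fibrillar chain known mainly from cartilage, had signals of 7.60, 7.87 and 7.76 in norUDCA-fed CBDL, 7.59, 7.08 and 7.43 in CBDL and 8.08, 7.78 and 7.92 in sham kidneys. It fell by 0.56 in CBDL against sham (adjusted p = 0.021), a call that ended without sham_158 (0.075), sham_160 (0.0535) or CBDL_165 (0.0609), and differed by 0.38 in norUDCA-fed CBDL against CBDL (adjusted p = 0.183). Sox9, which activates Col2a1 in cartilage, changed by 3.22 in CBDL against sham (adjusted p = 2.98e-05), by -1.52 in norUDCA-fed CBDL against CBDL and by 1.69 in norUDCA-fed CBDL against sham. Which cells of the kidney gave the Sox9 signal was not tested, so its change is not read as a cartilage signal. The other 5 cartilage and bone markers of the list (Acan, Matn1, Ibsp, Dmp1 and Bglap) did not pass in CBDL against sham, and their mean signals lay between 3.96 and 5.54. Because the fibrillar class splits into chains that rose and chains that did not, its median says little of either. The median change of the class in CBDL against sham was 0.06, which is the change of Col5a3, a chain that did not pass. It was 0.69 when genes with a mean signal under 5.2 were left out, of which Col11a1 was the only fibrillar chain. That 0.69 lies between the changes of Col5a3 (0.06) and Col5a1 (1.32) and is the change of no chain.

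The start regions of Col1a2 and Col3a1 are shown because these chains were among those that rose most. Each window runs from 250 bases before to 50 after the annotated start (RefSeq, GRCm38.p6), 5′ to 3′ on the gene's strand. Capitals mark matches, on either strand, to the TATA box (TATAAA), the CCAAT box (CCAAT) or the GC box (GGGCGG); none of these motifs contains another. The window of Col1a2 is chr6:4505368-4505667 on the + strand and that of Col3a1 is chr1:45311288-45311587 on the + strand.
Col1a2: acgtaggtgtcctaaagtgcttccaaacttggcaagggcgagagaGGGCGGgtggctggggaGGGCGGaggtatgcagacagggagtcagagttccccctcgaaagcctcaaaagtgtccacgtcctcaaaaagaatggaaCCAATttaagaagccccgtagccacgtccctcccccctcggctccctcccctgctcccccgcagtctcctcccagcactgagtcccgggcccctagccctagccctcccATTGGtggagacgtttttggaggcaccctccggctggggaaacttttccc
Col3a1: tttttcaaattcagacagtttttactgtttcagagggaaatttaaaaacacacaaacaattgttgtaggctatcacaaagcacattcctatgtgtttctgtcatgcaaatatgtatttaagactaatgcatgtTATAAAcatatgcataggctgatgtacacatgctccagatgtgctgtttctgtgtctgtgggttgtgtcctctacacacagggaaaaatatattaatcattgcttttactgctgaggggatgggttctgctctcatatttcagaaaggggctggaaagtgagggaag
Col1a2 holds a CCAAT box that begins 109 bases before the start and GC boxes that begin 205 and 188 bases before it, plus a CCAAT match on the other strand at the start itself. Col3a1 holds 1 match, a TATA box 117 bases before the annotated start. A window was found for 35 of the 44 collagens, Col1a1 and Col12a1 not among them. The GC box was present in 22 of the 35 (62.9%), against 35.7% of all 32851 windows of that length, the CCAAT box in 13 (37.1%, against 37.4%) and the TATA box in 5 (14.3%, against 13.6%). A collagen was counted when any of its windows held the motif (38 windows for the 35). The share over all windows counts each window by itself, so the 2 percentages are not of the same unit. Of the 12 with a window that rose in CBDL against sham, 8 held a GC box and 5 a CCAAT box, and of the 4 that fell, 2 and 0. These are matches of letters and were not tested as sites.

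**Figure D2:**
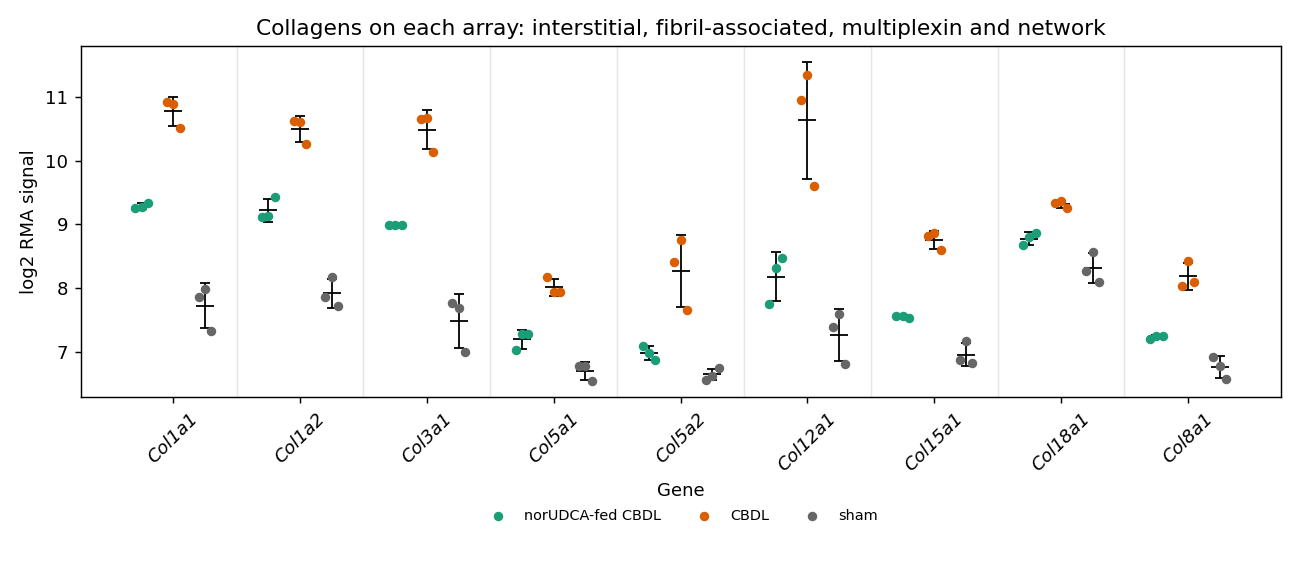
Log2 RMA signal (y axis) of 9 collagen genes (x axis) on each array of norUDCA-fed CBDL, CBDL and sham kidneys; points are arrays, and bars are the mean ± SD of 3 arrays. Col1a1 lay at 9.25 to 9.34 in norUDCA-fed CBDL, 10.52 to 10.92 in CBDL and 7.33 to 7.99 in sham kidneys, and Col12a1 had the widest spread in CBDL, 9.60 to 11.35.

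Type IV chains moved in both directions. In CBDL against sham, 2 of 6 rose and 2 fell, against 10.3% and 11.5% of all genes. In norUDCA-fed CBDL against CBDL 2 were lower and 0 higher by limma, against 3.2% and 3.61% of all genes. At an unadjusted p under 0.05, 3 were lower and 1 higher there, against 9.79% and 9.48% of all genes. In norUDCA-fed CBDL against sham 1 was higher and 0 lower, against 1.82% and 1.37% (unadjusted: 2 and 0, against 6.92% and 9.43%). Col4a1 and Col4a2 encode the chains found in most basement membranes. Col4a1 had signals of 8.81, 8.87 and 8.98 in norUDCA-fed CBDL, 9.55, 9.67 and 9.47 in CBDL and 8.31, 8.31 and 8.20 in sham kidneys. Col4a2 had signals of 8.64, 8.72 and 8.88 in norUDCA-fed CBDL, 9.45, 9.66 and 9.33 in CBDL and 8.08, 8.46 and 8.08 in sham kidneys. For both, the groups did not overlap and the norUDCA-fed arrays lay in the middle. In CBDL against sham Col4a1 changed by 1.29 (SE 0.10, adjusted p = 3.88e-05) and Col4a2 by 1.27 (SE 0.14, adjusted p = 0.000188). With norUDCA-fed CBDL set against CBDL they changed by -0.68 (SE 0.10, adjusted p = 0.00815) and -0.74 (SE 0.14, adjusted p = 0.0157), the call of Col4a2 ending without CBDL_164 (0.0566), CBDL_165 (0.0512), norUDCA_CBDL_172 (0.0635) or norUDCA_CBDL_175 (0.0659). For norUDCA-fed CBDL against sham Col4a1 was higher by 0.61 (adjusted p = 0.0109, and 0.0644 without norUDCA_CBDL_179), and Col4a2 differed by 0.54 (adjusted p = 0.0737, and 0.0386 without sham_159).

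Col4a3 and Col4a4, which encode chains of the mature glomerular filter, went the other way. Col4a4 had signals of 9.59, 9.52 and 9.43 in norUDCA-fed CBDL, 9.17, 9.15 and 9.25 in CBDL and 9.48, 9.65 and 9.69 in sham kidneys. The CBDL arrays lay below all others, and the norUDCA-fed and sham arrays overlapped. Col4a4 fell by 0.42 (SE 0.10, adjusted p = 0.0122) in CBDL against sham and differed by 0.33 (SE 0.10, adjusted p = 0.0821) in norUDCA-fed CBDL against CBDL, a difference that passed with an intensity trend in the prior variance (0.0422). Col4a3 had signals of 9.61, 9.84 and 9.33 in norUDCA-fed CBDL, 9.23, 9.35 and 9.33 in CBDL and 9.77, 9.91 and 9.66 in sham kidneys. It fell by 0.47 (SE 0.13, adjusted p = 0.031) in CBDL against sham, a call that ended without sham_158 (0.0733), sham_159 (0.0919), CBDL_164 (0.097), CBDL_165 (0.0601) or CBDL_170 (0.0612), and Col4a4 lost its call without sham_159 and CBDL_165 together (0.0632). In norUDCA-fed CBDL against sham neither passed, with -0.09 (95% interval -0.31 to 0.12) for Col4a4 and -0.19 (95% interval -0.49 to 0.11) for Col4a3.

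Col4a5, the third chain of the glomerular network, had signals of 7.45, 7.26 and 7.57 in norUDCA-fed CBDL, 7.62, 7.65 and 7.88 in CBDL and 7.57, 7.70 and 7.48 in sham kidneys. Its arrays overlapped between CBDL and sham, and its difference there was 0.13 (adjusted p = 0.481). Col4a6, a chain of Bowman's capsule, had signals of 5.68, 5.38 and 5.72 in norUDCA-fed CBDL, 5.88, 5.71 and 5.86 in CBDL and 5.71, 5.44 and 5.66 in sham kidneys, and it did not pass in any comparison. Podocytes, which make the chains of the filter, are 1 of several cell types in whole kidney RNA, and fewer cells of a type and less RNA per cell cannot be told apart in such samples. Of 6 podocyte markers 1 rose in CBDL against sham (Plce1, 0.82) and 2 fell (Clic5, -0.52, and the slit diaphragm gene Nphs1, -0.40). Over all genes, 10.3% rose and 11.5% fell. The summed linear signal of the 6 podocyte markers was 2170 to 2300 in norUDCA-fed CBDL, 1930 to 2100 in CBDL and 2110 to 2320 in sham kidneys, and the lowest log2 signal of a member was 6.73, for Synpo. Its part in the values of Col4a3 and Col4a4 was not tested.

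The windows around the starts of Col4a1 and Col4a2 are shown because these genes stand head to head. They share 78 bases, chr8:11312777-11312854 (RefSeq, GRCm38.p6), which are in capitals in both, each window being given 5′ to 3′ on its own gene's strand. The window of Col4a2 is chr8:11312555-11312854 on the + strand and that of Col4a1 is chr8:11312777-11313076 on the - strand.
Col4a2: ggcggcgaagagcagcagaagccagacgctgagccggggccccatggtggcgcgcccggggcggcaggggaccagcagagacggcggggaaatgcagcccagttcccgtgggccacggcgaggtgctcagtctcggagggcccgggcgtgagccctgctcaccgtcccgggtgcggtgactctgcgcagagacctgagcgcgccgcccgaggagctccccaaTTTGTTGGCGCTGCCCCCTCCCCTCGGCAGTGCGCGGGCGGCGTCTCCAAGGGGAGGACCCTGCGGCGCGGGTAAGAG
Col4a1: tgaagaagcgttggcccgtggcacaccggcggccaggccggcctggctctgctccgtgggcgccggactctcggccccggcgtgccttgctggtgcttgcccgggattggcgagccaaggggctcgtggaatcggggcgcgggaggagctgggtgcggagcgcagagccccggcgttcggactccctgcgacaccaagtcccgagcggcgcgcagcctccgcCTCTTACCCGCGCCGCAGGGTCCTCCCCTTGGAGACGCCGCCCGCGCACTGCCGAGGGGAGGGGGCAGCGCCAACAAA
Outside or inside the shared stretch, the Col4a2 window held 1 CCAAT box and 3 GC boxes, and the Col4a1 window 1 CCAAT box and 1 GC box. In the reference, 8 pairs of collagens are direct neighbours among protein-coding genes. Changes in CBDL against sham were 1.29 and 1.27 for Col4a1 and Col4a2, -0.42 and -0.47 for Col4a4 and Col4a3, 0.21 and 0.13 for Col4a6 and Col4a5, 3.00 and 1.63 for Col3a1 and Col5a2, and 1.21 and 1.83 for Col6a2 and Col6a1. In the pair of Col6a6 and Col6a5 they were -0.95 and -0.07, in that of Col6a5 and Col6a4 -0.07 and 0.00, and in that of Col9a1 and Col19a1 -0.10 and -0.49. Members of the 3 type IV pairs differed from each other by less than the standard error of either change, while Col6a6 fell beside neighbours that did not pass.

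**Figure D3:**
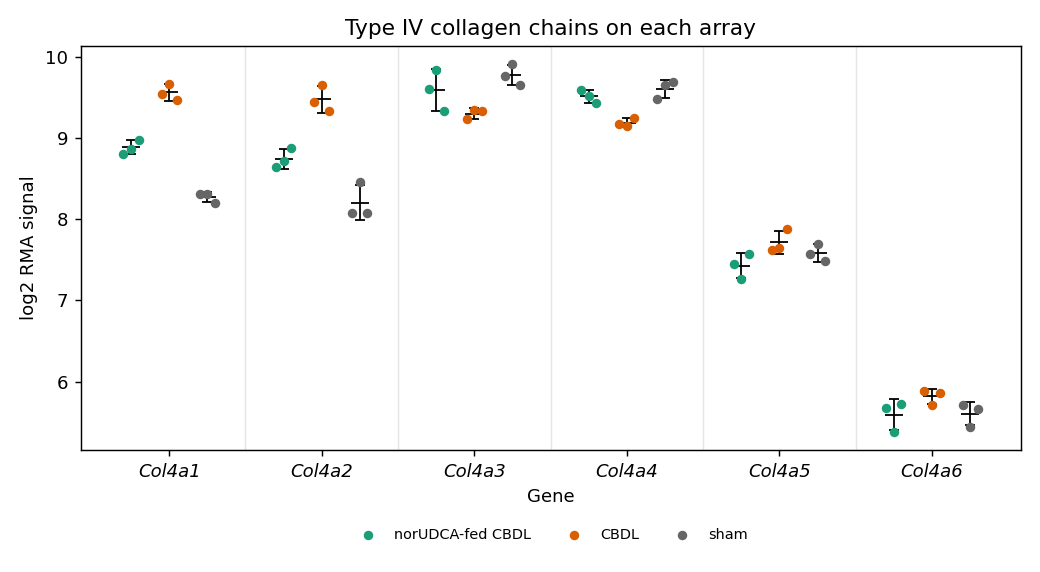
Log2 RMA signal (y axis) of the 6 type IV collagen chains (x axis) on each array of norUDCA-fed CBDL, CBDL and sham kidneys; points are arrays, and bars are the mean ± SD of 3 arrays. Col4a1 and Col4a2 were highest on the CBDL arrays (9.33 to 9.67), while Col4a3 and Col4a4 were lower on the CBDL arrays (9.15 to 9.35) than on the sham arrays (9.48 to 9.91).

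Type VI collagen forms beaded filaments between fibres, cells and basement membranes, from the products of Col6a1 and Col6a2 with Col6a3 or a chain that can take its place. Col6a1 had signals of 9.53, 8.98 and 9.47 in norUDCA-fed CBDL, 10.20, 10.06 and 9.84 in CBDL and 8.51, 8.27 and 7.82 in sham kidneys, with no overlap. It changed by 1.83 (SE 0.20, adjusted p = 0.000207) in CBDL against sham and differed by -0.71 (SE 0.20, adjusted p = 0.0704) in norUDCA-fed CBDL against CBDL, a difference that passed without sham_160 (0.049). Its 1.13 in norUDCA-fed CBDL against sham passed (adjusted p = 0.0184) but not without sham_159 (0.0522), sham_160 (0.0577), norUDCA_CBDL_172 (0.0869) or norUDCA_CBDL_179 (0.0937). Col6a2 had signals of 7.88, 7.60 and 7.89 in norUDCA-fed CBDL, 8.35, 8.49 and 8.6 in CBDL and 7.23, 7.37 and 7.21 in sham kidneys. It changed by 1.21 in CBDL against sham, by -0.69 in norUDCA-fed CBDL against CBDL (adjusted p = 0.0116, and 0.0506 without norUDCA_CBDL_175) and by 0.52 in norUDCA-fed CBDL against sham (adjusted p = 0.0433). That last call ended without any 1 of sham_158 (0.114), sham_159 (0.0634), sham_160 (0.128), CBDL_164 (0.0588), CBDL_165 (0.0509), norUDCA_CBDL_172 (0.171) or norUDCA_CBDL_179 (0.184).

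Col6a3 had signals of 7.83, 7.83 and 7.87 in norUDCA-fed CBDL, 8.91, 8.69 and 8.46 in CBDL and 7.46, 7.35 and 7.22 in sham kidneys. The groups did not overlap, and Col6a3 changed by 1.34 in CBDL against sham (adjusted p = 8.96e-05) and by -0.84 in norUDCA-fed CBDL against CBDL (adjusted p = 0.00824). Its 0.50 in norUDCA-fed CBDL against sham had an adjusted p of 0.0659. Col6a6, a chain that can stand in for that of Col6a3, had signals of 5.8, 5.89 and 6.17 in norUDCA-fed CBDL, 6.18, 5.67 and 6.18 in CBDL and 6.66, 7.12 and 7.10 in sham kidneys. Both ligated groups lay below sham and overlapped each other. Col6a6 fell by 0.95 (SE 0.18, adjusted p = 0.00439) in CBDL against sham and by 1.01 (SE 0.18, adjusted p = 0.0188) in norUDCA-fed CBDL against sham, and differed by -0.06 (95% interval -0.46 to 0.35) in norUDCA-fed CBDL against CBDL. The call against sham under norUDCA ended without sham_159 (0.0651), sham_160 (0.0739), norUDCA_CBDL_172 (0.0892), norUDCA_CBDL_175 (0.0658) or norUDCA_CBDL_179 (0.0509). Col6a4 and Col6a5 did not pass in any comparison, though CBDL_165 read 6.11 for Col6a5 against 4.98 and 4.85 on the other CBDL arrays, and without it Col6a5 changed by -0.47 in CBDL against sham (adjusted p = 0.0389).

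**Figure D4:**
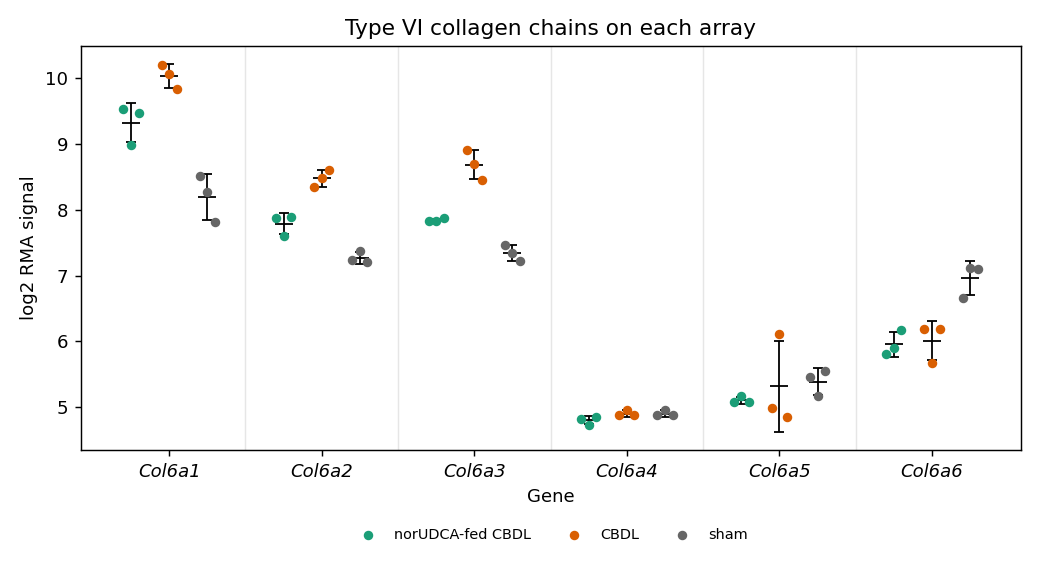
Log2 RMA signal (y axis) of the 6 type VI collagen chains (x axis) on each array of norUDCA-fed CBDL, CBDL and sham kidneys; points are arrays, and bars are the mean ± SD of 3 arrays. Col6a1, Col6a2 and Col6a3 were highest on the CBDL arrays, and Col6a6 lay at 5.8 to 6.17 in norUDCA-fed CBDL, 5.67 to 6.18 in CBDL and 6.66 to 7.12 in sham kidneys.

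Fibril-associated collagens bind to the surface of other fibres. Col12a1, found on type I fibres of dense and loaded tissue, had signals of 7.75, 8.32 and 8.47 in norUDCA-fed CBDL, 10.96, 11.35 and 9.60 in CBDL and 7.39, 7.59 and 6.80 in sham kidneys. CBDL_170 was the lowest CBDL array and still above every norUDCA-fed array. Col12a1 changed by 3.37 (SE 0.40, adjusted p = 0.000338) in CBDL against sham, a 10.4-fold difference, and by -2.45 (SE 0.40, adjusted p = 0.011) in norUDCA-fed CBDL against CBDL, which was the largest change of a collagen in either comparison. The second of these calls ended without CBDL_164 (0.0516) or norUDCA_CBDL_175 (0.05). With norUDCA-fed CBDL set against sham Col12a1 differed by 0.92 (SE 0.40, adjusted p = 0.298). Col14a1, a close relative that binds type I fibres too, had signals of 7.99 to 8.43 over all 9 arrays and did not pass, with 0.22 in CBDL against sham (95% interval -0.05 to 0.49) and 0.00 in norUDCA-fed CBDL against CBDL (95% interval -0.27 to 0.26).

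Col16a1 rose by 0.45 in CBDL against sham (adjusted p = 0.0141, and 0.0653 without sham_159 and CBDL_165 together), and its -0.35 in norUDCA-fed CBDL against CBDL did not pass (adjusted p = 0.0932, and 0.048 without CBDL_170). Col19a1 fell by 0.49 in CBDL against sham (adjusted p = 0.0235), which no longer passed without sham_159 (0.055), sham_160 (0.0811) or CBDL_165 (0.0714). Its mean signal over the 9 arrays was 5.14, below 5.2, a range in which signal above background is not shown. That bound was set by the rank of genes by mean signal and not by a measured background. Col11a1, Col28a1 and Col6a4 were dim in the same way. Col9a1, Col9a2, Col9a3, Col20a1 and Col22a1, of which the type IX chains are known from cartilage, did not pass in any comparison.

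Col15a1 and Col18a1 encode multiplexins, collagens of the basement membrane zone with chains of sugar attached, and the end of the Col18a1 product is the fragment endostatin. Col15a1 had signals of 7.56, 7.56 and 7.53 in norUDCA-fed CBDL, 8.81, 8.86 and 8.59 in CBDL and 6.87, 7.16 and 6.82 in sham kidneys, with no overlap. It changed by 1.80 (SE 0.12, adjusted p = 2.56e-05) in CBDL against sham and by -1.20 (SE 0.12, adjusted p = 0.00655) in norUDCA-fed CBDL against CBDL. Its 0.60 in norUDCA-fed CBDL against sham passed (adjusted p = 0.0261), but not without sham_158 (0.0835), sham_160 (0.0935), norUDCA_CBDL_172 (0.107), norUDCA_CBDL_175 (0.0781) or norUDCA_CBDL_179 (0.106). Col18a1 had signals of 8.67, 8.80 and 8.86 in norUDCA-fed CBDL, 9.33, 9.36 and 9.25 in CBDL and 8.27, 8.57 and 8.10 in sham kidneys. It rose by 1.0 (SE 0.13, adjusted p = 0.00044) in CBDL against sham. For norUDCA-fed CBDL against CBDL it changed by -0.54 (adjusted p = 0.0348), a call lost without sham_158 (0.0567), CBDL_164 (0.106), CBDL_165 (0.105), norUDCA_CBDL_172 (0.125), norUDCA_CBDL_175 (0.104) or norUDCA_CBDL_179 (0.0781). In norUDCA-fed CBDL against sham its 0.47 did not pass (adjusted p = 0.0891, and 0.0308 without sham_159).

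Col8a1, whose product forms the hexagonal network of type VIII under endothelial cells, had signals of 7.19, 7.24 and 7.25 in norUDCA-fed CBDL, 8.03, 8.42 and 8.10 in CBDL and 6.92, 6.77 and 6.57 in sham kidneys. The groups did not overlap. Col8a1 changed by 1.43 (SE 0.13, adjusted p = 8.18e-05) in CBDL against sham and by -0.95 (SE 0.13, adjusted p = 0.00815) in norUDCA-fed CBDL against CBDL, while its partner chain gene Col8a2 differed by -0.31 (adjusted p = 0.228) and 0.07 (adjusted p = 0.899). Col7a1, of the anchoring fibrils of skin, and Col10a1, of hypertrophic cartilage, passed in neither comparison with CBDL, but passed in both without CBDL_170. Col7a1 read 6.74, 7.06 and 5.99 in CBDL against 5.96, 6.01 and 5.94 in sham kidneys, and its difference of 0.62 (adjusted p = 0.0748) became 0.93 (adjusted p = 0.00108) without CBDL_170. In norUDCA-fed CBDL, at 5.91, 5.76 and 5.98, Col7a1 differed from CBDL by -0.71 (adjusted p = 0.0951), and by -1.02 (adjusted p = 0.00228) without CBDL_170. The difference of Col10a1 in CBDL against sham was 0.68 (adjusted p = 0.0781), 0.93 (adjusted p = 0.0168) without CBDL_170 and 0.81 (adjusted p = 0.0397) with array weights. With norUDCA-fed CBDL set against CBDL it was -0.67 (adjusted p = 0.157), and -0.91 (adjusted p = 0.0354) without CBDL_170.

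Of the remaining members, the transmembrane collagens Col13a1, Col17a1, Col23a1 and Col25a1 and the genes Col26a1 and Col28a1 did not pass in any comparison. Col26a1 came nearest, with -0.52 in CBDL against sham (adjusted p = 0.0528), and it passed without sham_160 (-0.70, adjusted p = 0.0119). Among the collagens that rose in CBDL against sham, CBDL_170 was the lowest CBDL array for Col1a1, Col1a2, Col3a1, Col5a2, Col12a1 and Col15a1. It was also the lowest for Col4a1, Col4a2, Col6a1, Col6a3, Col16a1 and Col18a1. For Col5a1 it read 7.93, as did CBDL_165, for Col8a1 the lowest was CBDL_164 (8.03), and for Col6a2 CBDL_170 was the highest (8.6). On the first principal component CBDL_170 lay at 26.1, nearer to the other groups than CBDL_164 (40.6) and CBDL_165 (57).

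Collagen chains are hydroxylated and folded in the endoplasmic reticulum, trimmed outside the cell and cross-linked. Of 30 measured genes of these steps, 12 rose and 0 fell by limma in CBDL against sham, with a median of 0.05. Over all genes, 10.3% rose and 11.5% fell. At an unadjusted p under 0.05, 13 were higher and 3 lower, against 15.1% and 18.2% of all genes. For norUDCA-fed CBDL against CBDL 6 were lower and 0 higher, against 3.2% and 3.61% of all genes (unadjusted: 9 and 0, against 9.79% and 9.48%). In norUDCA-fed CBDL against sham 5 were higher and 0 lower, against 1.82% and 1.37% (unadjusted: 7 and 2, against 6.92% and 9.43%). Lox, which oxidises lysines for cross-links, changed by 3.16 in CBDL against sham (adjusted p = 1.75e-05) and by -1.40 in norUDCA-fed CBDL against CBDL (adjusted p = 0.00658), and its relatives Loxl1 and Loxl3 rose by 1.46 and 1.22 in CBDL against sham. Bmp1, the protease that removes the end of fibrillar procollagens, changed by 2.23 in CBDL against sham (adjusted p = 3.99e-05) and by -1.38 in norUDCA-fed CBDL against CBDL (adjusted p = 0.00658). Pxdn, a peroxidase that cross-links type IV, changed by 1.10 and -0.90 in the same comparisons, and Sparc, a collagen-binding protein, by 1.14 and -0.71. Among genes picked after their values were seen, the chaperone gene Serpinh1 rose by 0.64 in CBDL against sham (adjusted p = 0.00534), and the prolyl hydroxylase genes P4ha1 and P4hb differed by -0.42 (adjusted p = 0.0527) and 0.02 (adjusted p = 0.92).

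Of 23 measured genes of collagen receptors, uptake and breakdown, 14 rose and 2 fell in CBDL against sham, with a median of 1.10. Those are 60.9% and 8.7%, against 10.3% and 11.5% of all genes, and the 2 that fell are not among the members named below. In norUDCA-fed CBDL against CBDL 10 were lower and 0 higher by limma, against 3.2% and 3.61% of all genes. At an unadjusted p under 0.05, 15 were lower and 0 higher there, against 9.79% and 9.48%. In norUDCA-fed CBDL against sham 7 were higher and 0 lower, against 1.82% and 1.37% (unadjusted: 11 and 4, against 6.92% and 9.43%). Timp1, an inhibitor of matrix metalloproteinases, changed by 4.06 in CBDL against sham and by -1.12 in norUDCA-fed CBDL against CBDL. The membrane protease gene Mmp14, which cuts fibrillar collagen, changed by 2.96 and -1.52, and the gelatinase gene Mmp2 by 2.88 and -1.99 in these comparisons. Cd44, an adhesion receptor, changed by 2.66 and -1.17, and Itga2, a chain of a collagen-binding integrin, by 2.31 and -1.46. Lair1, an inhibitory collagen receptor of leukocytes, changed by 1.73 and -0.69, and Adgrg1, an adhesion receptor that binds type III collagen, by 1.10 and -0.48.

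**Figure D5:**
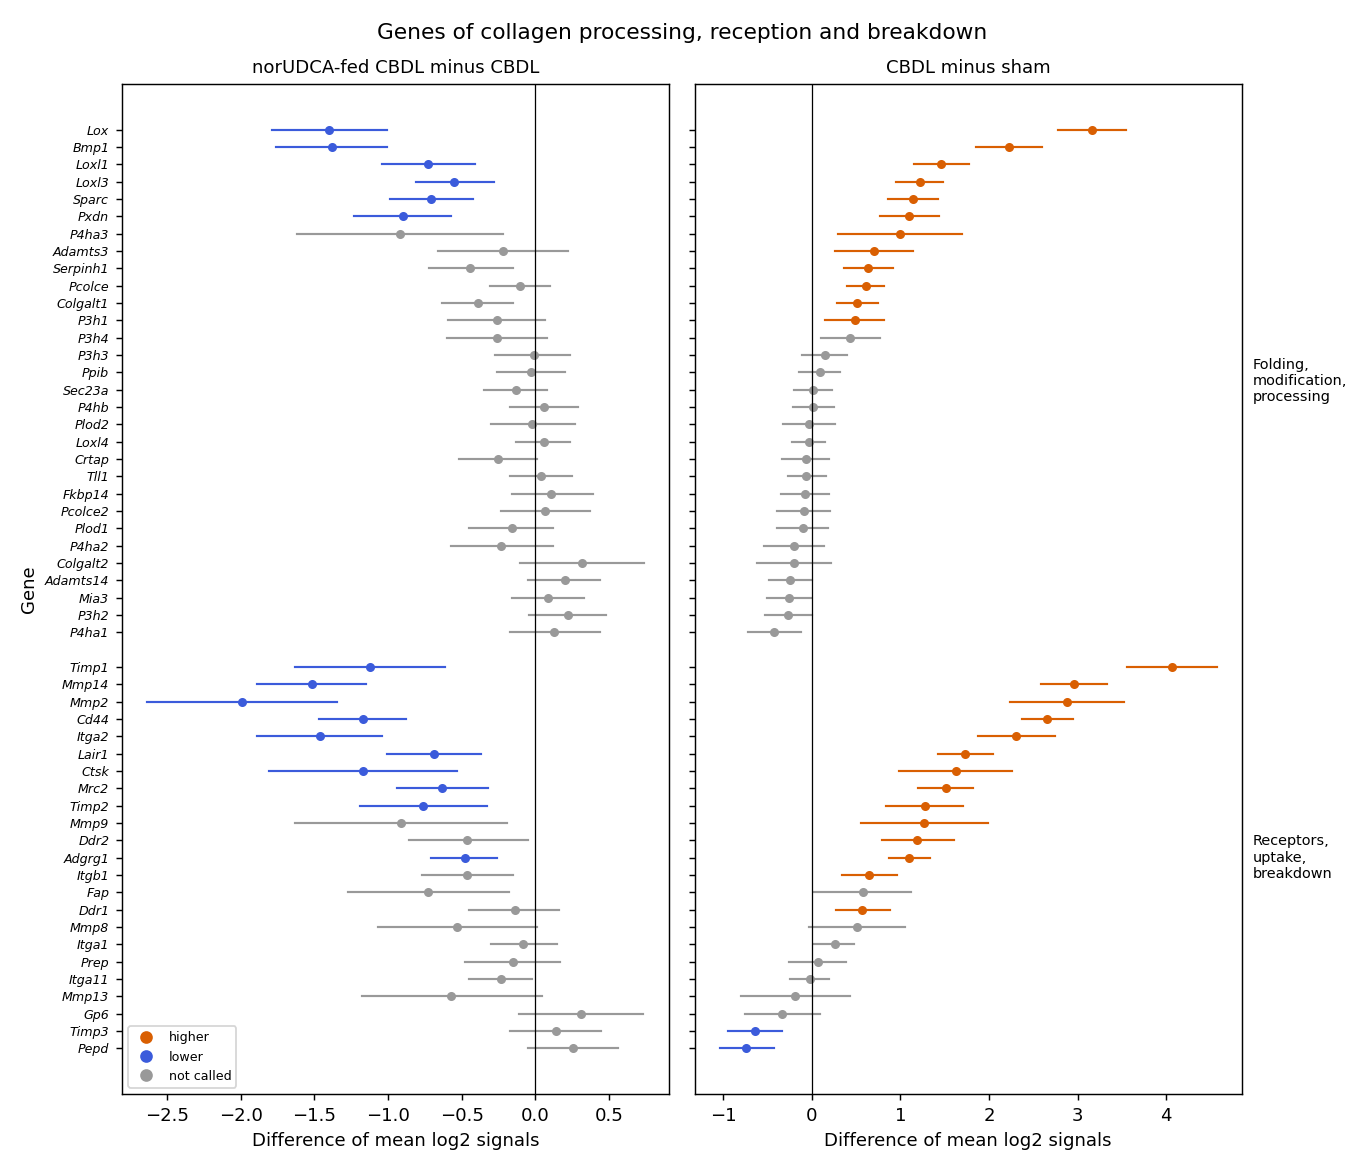
Difference of mean log2 signals (x axis) for 30 genes of collagen folding, modification and processing and 23 genes of collagen receptors, uptake and breakdown (y axis), with norUDCA-fed CBDL minus CBDL on the left and CBDL minus sham on the right, on separate scales. Points are estimates with 95% confidence intervals from the limma fit, and colour gives the call at an adjusted p under 0.05. In CBDL minus sham, 12 and 14 genes of the lists were higher, led by Lox (3.16) and Timp1 (4.06), against 10.3% of all genes.

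Over all genes, 10.3% rose and 11.5% fell in CBDL against sham, 3.2% were lower and 3.61% higher in norUDCA-fed CBDL against CBDL, and 1.82% were higher in norUDCA-fed CBDL against sham. Of 10 fibroblast and myofibroblast markers, 9 rose in CBDL against sham and 0 fell by limma (unadjusted p under 0.05: 9 and 0, against 15.1% and 18.2% of all genes). In norUDCA-fed CBDL against CBDL 3 were lower (unadjusted: 8 lower and 0 higher, against 9.79% and 9.48%). In norUDCA-fed CBDL against sham 2 were higher (unadjusted: 7 higher and 0 lower, against 6.92% and 9.43%). The summed linear signal of these 10 markers was 6870 to 7270 in norUDCA-fed CBDL, 9940 to 11900 in CBDL and 3990 to 5290 in sham kidneys. The lowest log2 signal of a member was 4.87, for Meg3. The receptor gene Pdgfrb, of pericytes and fibroblasts, changed by 1.06 in CBDL against sham and by -0.52 in norUDCA-fed CBDL against CBDL (adjusted p = 0.0475), and Dcn, a proteoglycan of collagen fibres, by 1.33 and -0.30 (adjusted p = 0.366). All 8 macrophage markers rose in CBDL against sham and were lower in norUDCA-fed CBDL against CBDL, with sums of 2840 to 3080 in norUDCA-fed CBDL, 4990 to 8140 in CBDL and 1510 to 2040 in sham kidneys. All 8 proximal tubule markers fell in CBDL against sham, with sums of 32400 to 34700 in norUDCA-fed CBDL, 12100 to 23200 in CBDL and 40500 to 42400 in sham kidneys. Of 8 endothelial markers 1 fell in CBDL against sham (Kdr, -0.90), which is 12.5%, near the 11.5% of all genes. The sums of the 8 were 6070 to 6210 in norUDCA-fed CBDL, 5480 to 6440 in CBDL and 5770 to 6430 in sham kidneys. The part of these cell types in the changes of the collagens was not tested.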

How the data were processed

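The authors deposited log2 signals, 1 for each transcript cluster, made by RMA in Partek 6.6, per the submitters' processing notes. Per the labels' protocols, TRIzol was used for extraction and Affymetrix's WT PLUS kit for target preparation. The array model, genome build, filters and batch steps are not given in the sources used here. They were used without further scaling. Of 41345 rows, 23521 carry 1 gene symbol, 1814 several and 16010 none; single-symbol rows gave 22180 genes, none left out for low signal.

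limma 3.58.1 in R 4.3.3 was fitted with 1 mean per group over all 9 arrays (6 residual and 3.77 prior degrees of freedom), two-sided. The labels name no batch and give every array its own number. The members and gene lists were chosen with earlier results of these data known; lists are described by counts and medians. Array values are given for the 10 called collagens that changed most in CBDL against sham, all type IV chains and those called, or among the 6 smallest p-values, between norUDCA-fed CBDL and CBDL; those of Col6a6, Col27a1, Col6a5 and Col7a1 were chosen after they were seen. Of the other lists, up to 6 members with the smallest p in CBDL against sham and up to 4 between norUDCA-fed CBDL and CBDL are named, and of the marker lists some members were picked after their values were seen. Plod3, Fkbp10, Adamts2, Loxl2, Itga10 and Krt5 lack a single-symbol row and were not used here. Of 5 epidermal and urothelial markers, 0 were called in any comparison by limma (1 with an unadjusted p under 0.05 in CBDL against sham and 1 in norUDCA-fed CBDL against CBDL). Over all genes, 21.8% were called in CBDL against sham, 6.8% in norUDCA-fed CBDL against CBDL and 3.18% in norUDCA-fed CBDL against sham. Of 5 markers of other tubule segments, 1 fell in CBDL against sham, against 11.5% of all genes. Tested on simulated arrays of 22180 genes, the fit found 40% of genes planted at 1.5-fold and 80% of those at 2-fold for CBDL against sham, 35% and 73% for norUDCA-fed CBDL against CBDL, and 36% and 77% for norUDCA-fed CBDL against sham. False calls were 4.76%, 3.57% and 5.04% in the same order of comparisons. Alternatives were other variance models, array weights, other row rules, quantile normalization, a filter on dim genes and leaving out arrays.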

Additional observations from a re-analysis of the deposited data

How the results depend on the processing

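No call of a collagen reversed its direction under any of the settings run. Of the calls in CBDL against sham, 17 of 20 held in every planned setting that gives each gene 1 value (counting each row as its own feature gives counts alone), in norUDCA-fed CBDL against CBDL 1 of 13 (6 more were lost only without moderated variances), and in norUDCA-fed CBDL against sham 2 of 8 (1 more likewise). With variances that were not moderated, the counts were 2 lower in CBDL against sham, 1 lower in norUDCA-fed CBDL against CBDL, and 3 higher and 0 lower in norUDCA-fed CBDL against sham. With only the 6 arrays compared, 3 were lower in CBDL against sham. With array weights 12 were higher and 2 lower in norUDCA-fed CBDL against sham. With an intensity trend, or with genes under a mean signal of 5.2 left out, 1 (Col4a4) was higher in norUDCA-fed CBDL against CBDL. Leaving out 1 array gave 15 to 17 higher and 3 to 5 lower in CBDL against sham, 0 higher and 8 to 16 lower in norUDCA-fed CBDL against CBDL, and 3 to 8 higher and 0 to 2 lower in norUDCA-fed CBDL against sham. Without sham_159 and CBDL_165 together, a setting chosen after seeing the data, 14 were higher and 3 lower in CBDL against sham and 13 lower in norUDCA-fed CBDL against CBDL. The cause of these differences was not tested. Fewer arrays or unshared variances leave fewer degrees of freedom, and the part of that was not tested either. No paired analysis was possible because replicate numbers are not shared between groups. Signals under about 5.2 are not shown to exceed background, which limits Col11a1, Col19a1, Col28a1 and Col6a4. The bound of 5.2 was set by the rank of genes by mean signal, and no background level was estimated. Collagens not far above it, such as Col6a5 and Col10a1 (sham means of 5.39 and 5.13), are not shown to exceed background either.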
